A study of Mus musculus with 8 samples.

Results

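The probes described here rose in mouse aortic smooth muscle cells that had lost Srf and stayed near their starting level when wild-type cells received myocardin. They were chosen from the authors' deposited table of log2 values by 2 conditions. The mean of the Srf knockout arrays had to lie 2 or more above the mean of the wild-type arrays, and the mean of the Myocd arrays had to lie within 0.5 of the wild-type mean in either direction. Of the 42995 probes in that table, 332 met both conditions, or 0.772%. The knockout, Myocd and wild-type values of these probes therefore made the choice and are given as a description, and the counts of test calls in these contrasts support nothing. The 2 conditions used neither the aorta and liver levels nor the class of a probe, but 76 of the 332 probes were in the table only through their detection in these tissues.

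RNA was measured on single-colour Cy3 arrays whose probes were designed for long non-coding RNAs and mRNAs of the mouse. There were 2 arrays of Srf knockout cells with empty adenovirus (AdEmpty), 2 of wild-type cells with a Myocd adenovirus (AdMyocd), 2 of wild-type cells with empty adenovirus, and 1 array each of freshly isolated wild-type aorta and liver. All 6 cultures were at passage 3 and carried adenovirus at a multiplicity of infection of 100 for 3 days, so the wild-type cells with empty virus had been transduced as well. The labels give no mouse strain, age or sex, do not say how Srf was deleted, and leave unsaid whether replicates were separate cultures, so p-values measure only the spread between these arrays, which may be technical. Slide 1 held the knockout and wild-type arrays, and slide 2 held the others.

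Serum response factor, the product of Srf, binds CArG elements in the control regions of many cytoskeletal, contractile and growth-responsive genes. Myocardin is a coactivator that has no such DNA binding of its own at these elements and works in smooth and cardiac muscle by joining serum response factor there. Removing the factor and adding its coactivator are therefore opposite manipulations for genes they drive together. The probes described here follow neither pattern, since they were chosen to move with 1 manipulation only.

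The files pair none of these probes with a gene. They carry the maker's identifiers, and the 15 probes of the array with a RefSeq accession are not in the deposited table. No probe was assigned to Srf, Myocd or a marker of smooth muscle or liver here, so the labels were not checked against the targeted genes or the tissues. The files hold no probe sequences, and none are shown.

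Levels are given on the log2 scale relative to the 75th percentile of processed intensity over the 60915 probes of an array, so a probe at that percentile has a level of 0. The median level of the 332 probes was 0.33 and 0.17 on the knockout arrays, -2.95 and -3.04 on the Myocd arrays, and -3.21 and -2.99 on the wild-type arrays. In aorta it was 0.55, and in liver -0.45. The chosen probes were thus dim in wild-type and Myocd cells and of middling to high brightness on the other 4 arrays. Set among all 42995 table probes by group mean, the median chosen probe stood at percentile 66.9 in knockout cells, 28.2 in Myocd cells and 28.9 in wild-type cells. The same median stood at percentile 70.2 in aorta and 60.1 in liver. The choice itself favours probes that are low in wild-type and high in knockout cells, and 76 of the 332 probes were in the table only because they were detected in tissue, so no percentile over all 332 is free of selection. Among the 256 other probes, the median stood at percentile 73.0 in aorta and 58.2 in liver, over the table probes with the same detection in culture.

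**Figure D1:**
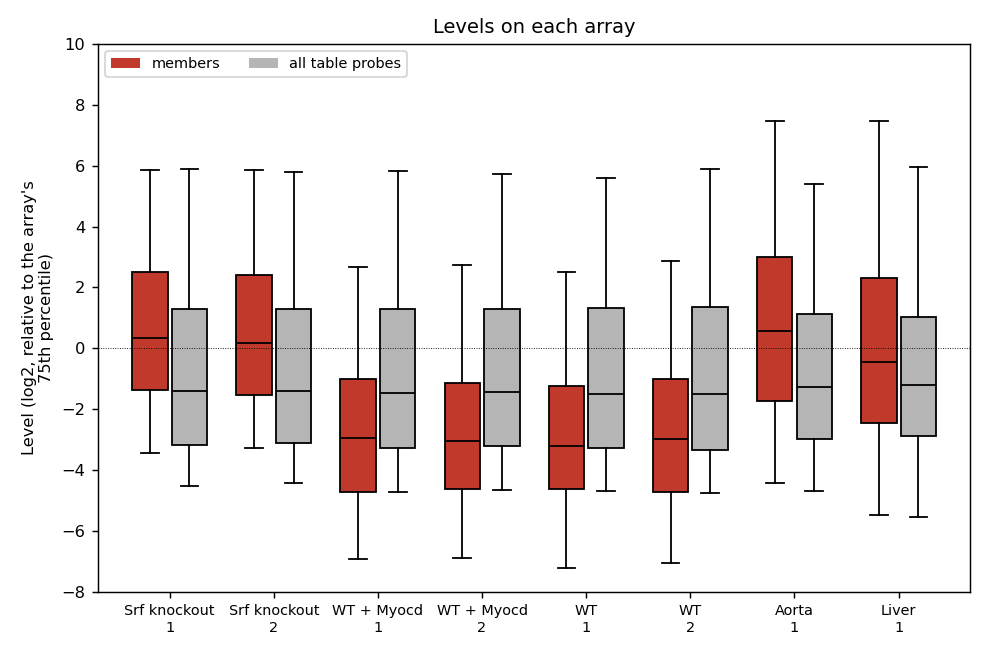
Level of each probe on each array, as log2 intensity relative to the array's 75th percentile (dotted line). Red boxes hold the 332 chosen probes and grey boxes all 42995 table probes, with the quartiles and median in the box and whiskers to the 5th and 95th percentile. The red medians lie at 0.33 and 0.17 in Srf knockout cells, near -3 in Myocd and wild-type cells, and at 0.55 in aorta and -0.45 in liver.

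The deposited rise of the 332 probes ran from 2.01 to 8.43 on the log2 scale, with a median of 2.82 and quartiles of 2.35 and 3.55. Rises of 3 or more were found for 142 probes, of 4 or more for 60 and of 6 or more for 12. In 259 probes, or 78.0%, each knockout array lay 2 or more above each wild-type array. The Myocd difference had a median of 0.00, with 149 probes above and 183 below the wild-type mean. The 183 include 17 probes with the lowest deposited value on all 4 Myocd and wild-type arrays. Their difference of -0.00256 is that of the lowest values themselves, and it was also the median of the 332. Myocd and wild-type arrays overlapped for 222 of the 332 probes, or 66.9%, against 41.6% of the whole table. The rule fixed both of these patterns.

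**Figure D2:**
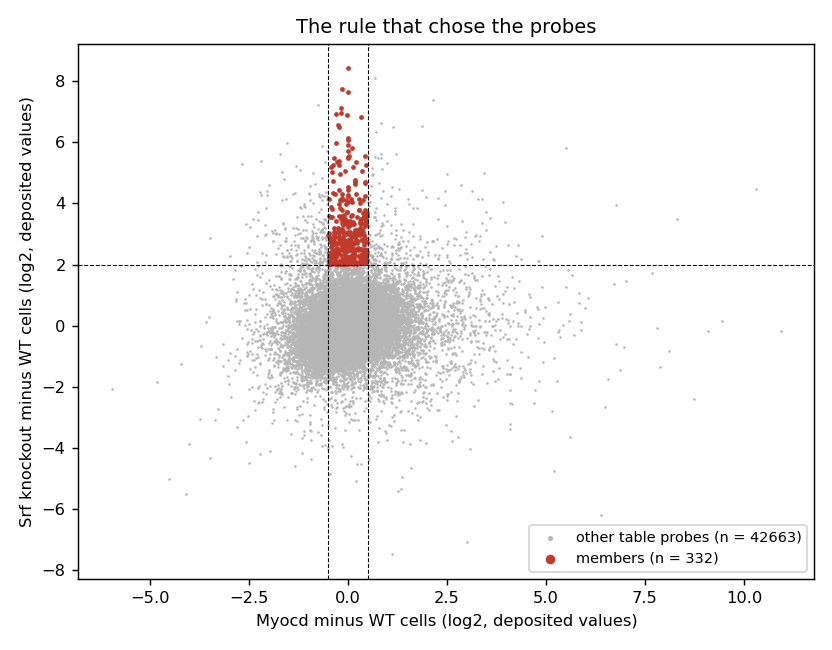
Difference of Srf knockout and wild-type cells (vertical axis) against the difference of Myocd and wild-type cells (horizontal axis), both as log2 differences of group means in the deposited table, 1 point per probe. Dashed lines mark the thresholds of the rule at 2 and at 0.5 on either side of 0. The 332 chosen probes are red, the highest of them at a rise of 8.43.

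The edges of the choice were not gaps in the data. The smallest rises inside were 2.006, 2.011 and 2.012, and the largest outside, among probes with a Myocd difference under 0.5, were 1.998, 1.995 and 1.990. For the Myocd difference, the largest sizes inside were 0.495, 0.492 and 0.485, and the smallest outside were 0.502, 0.505 and 0.505. A Myocd difference of 0.4 or more in size was found for 58 of the 332 probes. A Myocd difference under 0.5 is common, since 30226 table probes, or 70.3%, had one.

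The linear model of limma over all tested probes was fitted to the 6 cultured arrays on the scanner levels. It called 329 of the 332 probes higher in knockout than in wild-type cells, where 12.3% of 44077 tested probes were called higher (limma, adjusted p under 0.05). It called 0 of the 332 in the Myocd contrast in either direction, where 15.2% of tested probes were called. At an unadjusted p under 0.05 the Myocd count was 29, and the lowest adjusted p of a member was 0.063 (limma). Without wild-type replicate 1 the Myocd count was 10, and without wild-type replicate 2 it was 16. Both contrasts were used by the rule, so nothing is read from these counts. Both knockout arrays were measured and stood above both wild-type arrays for 330 of the 332 probes, against 35.6% of the table.

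The exceptions were ASMM10P015459 and ASMM10P009395, singled out after their values were seen. The levels of ASMM10P015459 were -4.44 and 0.12 in knockout cells, -4.37 and -3.84 in Myocd cells, and -4.51 and -4.42 in wild-type cells. Its membership rested on the second knockout array alone. ASMM10P009395 had a level of -2.53 on the first knockout array, -2.5 and -2.47 in Myocd cells, and -2.76 and -2.56 in wild-type cells. Its spot on the second knockout array was an outlier for the scanner software and has no level here, while the authors' deposited table gives 12.8 there and 6.17 on the first knockout array. The deposited rise of 3.32 thus rested on that spot. ASMM10P034778, also singled out after its values were seen, had an outlier spot on the second Myocd array, where the deposited table gives 8.37 against 6.66 on the first, and its place within 0.5 of the wild-type values of 7.33 and 7.26 rested on it. Of the 332 probes, 8 had knockout replicates more than 1 log2 unit apart, and 30 had wild-type replicates that far apart. Among the 8, ASMM10P027182, ASMM10P027190, ASMM10P028912, ASMM10P000984, ASMM10P004096 and ASMM10P035044 read higher on the first knockout array. Seen after the fact, their liver levels ran from 11.07 to 11.62, where the highest of the table was 11.62. ASMM10P013788 had the same order with a liver level of -2.10, and ASMM10P015459 the opposite order. The cause was not tested. The median difference between replicates was 0.20 in knockout, 0.20 in Myocd and 0.34 in wild-type cells.

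The baseline of the chosen probes ranged from background to well above the 75th percentile. In wild-type cells, 53 of the 332 probes had a level of 0 or more, 80 lay within 2.5 below that point, 128 lay 2.5 to 5 below it, and 71 lay more than 5 below it. The share of table probes that were chosen was 0.349%, 0.677%, 0.859% and 6.42% in these bands, from the brightest to the dimmest. The dimmest band held 21.4% of the chosen probes and 2.57% of the table. However, 70 of its 71 chosen probes were in the table only through their detection in tissue. Among table probes well above background on 4 or more cultured arrays, 1 of the 385 in this band was chosen. Nothing is therefore read from the share of 6.42%. The median rise was 2.77, 2.74, 2.79 and 3.08 in the same order.

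The scanner software marks each spot as well above background or not, and a probe without that mark on any array of a group has only an upper limit there. In wild-type cells 58 of the 332 probes, or 17.5%, were not well above background on either array, against 1.55% of the table. Their rise is a lower bound, from at least 1.63-fold to at least 143-fold with a median of at least 5.16-fold. In Myocd cells the number was 76. On all 4 Myocd and wild-type arrays together, 57 probes had no mark, and their median level was -6.57 in Myocd cells and -6.62 in wild-type cells. The median of 15 negative control probes was -6.94 and -6.85 on the Myocd arrays and -7.17 and -7.08 on the wild-type arrays. For these 57 probes a Myocd difference under 0.5 compares 2 values at background, and 17 of them had the lowest value of the deposited table on all 4 arrays. A Myocd difference was measured on all 4 arrays for 230 of the 332 probes.

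The probe of largest rise, ASMM10P002317, belonged to this background class. Its levels were 2.10 and 2.22 in knockout cells, -7.04 and -6.67 in Myocd cells, and -7.36 and -7.15 in wild-type cells. Only the knockout arrays were above background among the cultures, and the knockout level was at least 143-fold higher than in wild-type cells. The same probe stood at 0.33 in aorta and 3.02 in liver. The next, ASMM10P041261, had levels of 2.12 and 1.87 in knockout cells, -6.04 and -6.44 in Myocd cells, and -7.37 and -5.61 in wild-type cells, at least 127-fold higher in knockout than in wild-type cells. It stood at 0.65 in aorta and 4.10 in liver, so both probes of largest rise were brighter in liver than in aorta.

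The deposited table adds a condition of its own that bears on the tissues. Every one of its probes had the mark of a signal well above background on at least 4 arrays of the 8. A probe seen only in knockout cells among the cultures therefore entered the table only if it was also seen in both aorta and liver, and one seen on 3 cultured arrays only if it was seen in either tissue. All 58 probes without the mark in wild-type cells were well above background in both tissues. The same rule applied to scanner levels of every probe on the array gave 498 probes that were well above background on both knockout arrays, of which 125 were not in the deposited table. Of those 125, 42.4% were well above background in aorta and 11.2% in liver, against 94.3% and 84.6% of the 332 chosen probes. Tissue values are for this reason given a second time for the 256 chosen probes that carried the mark on at least 4 of the 6 cultured arrays, which entered the table whatever their tissue levels.

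Among the 332 probes, 275 were well above background in both tissues, 38 in aorta only, 6 in liver only and 13 in neither. Among the 256 probes the numbers were 207, 32, 4 and 13. In this second set 93.4% were well above background in aorta, against 92.2% of table probes with the same detection in culture, and 82.4% were in liver, against 81.3%. The shares detected were thus near those of the table.

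Aorta was brighter than liver for more of the chosen probes. A level at least 4-fold higher in aorta than in liver, lower bounds included, was found for 96 of the 332 probes, or 28.9%, against 12.4% of all table probes. A level at least 4-fold higher in liver was found for 57, or 17.2%, against 10.9%. Both shares exceeded the table's, and that for aorta by more. Among the 256 probes, 85 or 33.2% were higher in aorta, against 12.6% of table probes with the same detection, and 33 or 12.9% were higher in liver, against 10.4%. With 1 array per tissue there is no replicate error and no test, and in whole tissue fewer cells of a type and less RNA per cell cannot be told apart.

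The median difference of aorta and liver was 0.57 among the 332 probes, with quartiles of -1.23 and 2.38, while the median over all table probes was -0.46. The table's own median depends on the scaling and was -0.23 with quantile normalization. Relative to the table, the chosen probes lay 1.04 higher with the 75th percentile and 0.93 higher with quantile normalization. With normexp background correction they lay 0.76 higher, and the table's median was -0.55. Differences ran from -8.52 to 9.34, so single probes departed far from the median in both directions. The liver array was the dimmest, with a 75th percentile of 165 against 364 in aorta and 452 to 498 in the cultures, and 51 of the 332 probes were not well above background there.

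**Figure D3:**
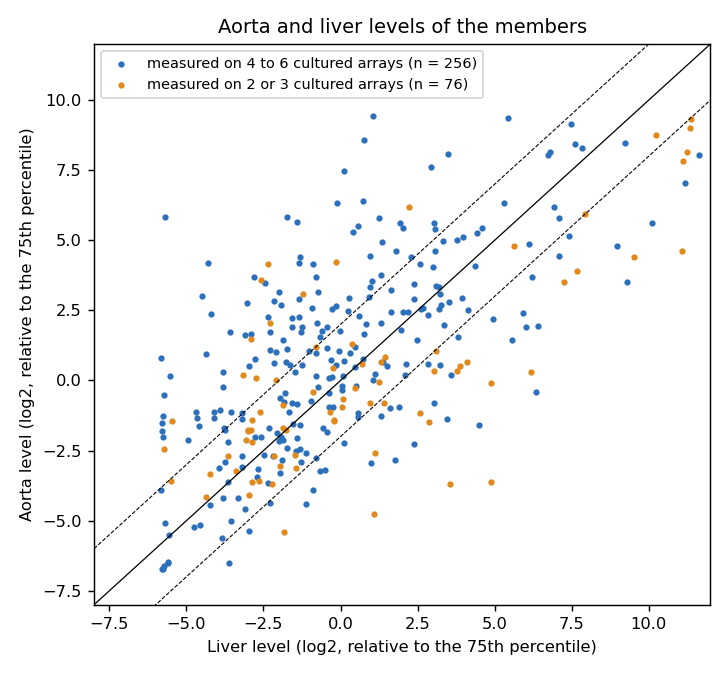
Aorta level (vertical axis) against liver level (horizontal axis) of the 332 chosen probes, both as log2 intensity relative to the array's 75th percentile. Blue points are the 256 probes well above background on 4 to 6 cultured arrays and orange points the 76 others, the solid line marks equal levels, and the dashed lines mark a 4-fold difference. Differences of aorta and liver run from -8.52 to 9.34 with a probe's dim side held at the detection limit, and the points without that limit spread somewhat wider.

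Among the 275 probes well above background in both tissues, 2 led in each direction. ASMM10P031147 had levels of 8.96 and 8.59 in knockout cells, 5.41 and 4.89 in Myocd cells, and 4.96 and 5.36 in wild-type cells. It was bright in every culture, and the knockout arrays lay above the others. It reached 9.43 in aorta, against 1.06 in liver, a 331-fold difference. ASMM10P053696 followed the same course, with 7.77 and 7.30 in knockout cells, 4.50 and 4.40 in Myocd cells, and 3.82 and 4.11 in wild-type cells. It stood at 8.58 in aorta, 228-fold above its level of 0.74 in liver. For both probes the aorta array lay closer to the knockout than to the wild-type arrays.

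At the other end, ASMM10P040743 had levels of -3.25 and -3.04 in knockout cells, -6.99 and -5.77 in Myocd cells, and -6.22 and -7.15 in wild-type cells. It was not well above background on any Myocd or wild-type array. It stood at 4.88 in liver, 366-fold above its level of -3.64 in aorta, and its knockout level was far below its liver level. ASMM10P040861 had -1.74 and -2.03 in knockout cells, -5.11 and -4.57 in Myocd cells, and -4.56 and -5.15 in wild-type cells. Its level of 3.55 in liver was 150-fold above its level of -3.68 in aorta. In both cases the knockout levels stayed below the median of the table's probes in knockout cells, which was -1.41.

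The share of probes higher in aorta than in liver was compared within bands of baseline level. The rule used that wild-type level and favoured low values, so the bands do not match probes on their knockout or aorta level. The table's own share higher in aorta also fell over the 3 brighter bands. These shares are therefore a description. Among the 53 probes with a wild-type level of 0 or more, 49.1% were at least 4-fold higher in aorta than in liver, against 24.9% of table probes in that band. In the next 2 bands downwards the shares were 28.8% against 8.08%, and 28.9% against 3.53%. For liver over aorta, the shares in these 3 bands were 11.3% against 8.16%, 17.5% against 10.6%, and 13.3% against 13.3%. With the 256 probes alone the upper 2 bands held the same members, and the third band had 29.5% higher in aorta, against 3.55%, and 10.7% higher in liver, against 12.7%. In the dimmest band, 70 of the 71 probes were in the table only through their detection in tissue, so nothing is read from their shares of 14.1% higher in aorta, against 6.78%, and 28.2% higher in liver, against 21.6%.

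**Figure D4:**
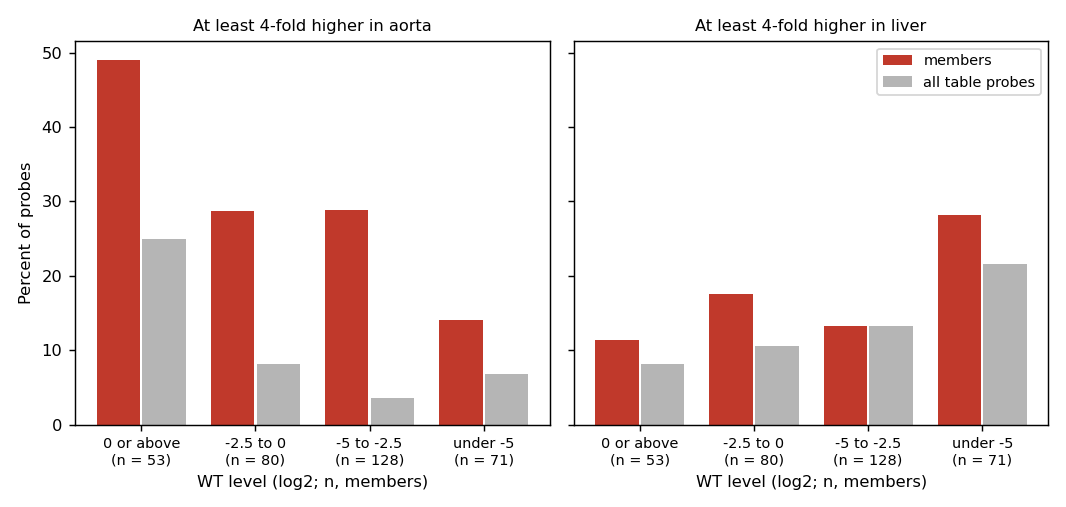
Percent of probes at least 4-fold higher in aorta than liver (left) and in liver than aorta (right), by band of wild-type level (log2, relative to the array's 75th percentile). Red bars are the chosen probes, with their number under each pair of bars, and grey bars are all table probes of the same band. On the left the red bar exceeds the grey one in the 3 brighter bands, with 49.1% against 24.9% in the brightest, while on the right the bars differ less. In the dimmest band 70 of the 71 chosen probes were in the table only through tissue detection. The rule used the wild-type level that sets the bands, so the bars are a description.

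Both tissues lay above the cultured wild-type cells for many of the chosen probes. The aorta level was at least 4-fold above wild-type cells for 218 of the 332 probes, or 65.7%, against 8.85% of the table, and the liver level for 176, or 53.0%, against 19.5%. Among the 256 probes the shares were 60.9% for aorta, against 8.11%, and 43.4% for liver, against 18.1%. Both tissues passed this fold for 141 probes, aorta alone for 77, liver alone for 35 and neither for 79. In the table, 4.77% passed in both tissues, 4.08% in aorta alone and 14.7% in liver alone. These comparisons share the wild-type arrays with the rule, which favours probes that read low there, and they also run from slide 2 to slide 1, so they are a description.

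The tissues were also set against the knockout cells. Among the 256 probes, the aorta level lay above both knockout arrays for 117, or 45.7%, against 43.1% of table probes with the same detection in culture. The liver level lay above both knockout arrays for 70, or 27.3%, against 55.8%. Over all 332 probes the shares were 52.7% for aorta, against 44.3% of the table, and 37.7% for liver, against 56.7%. The rule favours high knockout levels, and the comparison runs from slide 2 to slide 1, so these shares are a description. The table's liver levels also depend on the scaling. Their median difference from wild-type cells was 0.75 with the 75th percentile and 0.26 with quantile normalization. Across the 332 probes, aorta and liver levels had a Spearman correlation of 0.61, against 0.72 over the table, and the size of the rise had a Spearman correlation of 0.02 with the difference of aorta and liver. All of these points share the same arrays.

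The 13 probes that were well above background in neither tissue were each well above background on 4 or more cultured arrays. Of these, ASMM10P026138 and ASMM10P000443 had the largest rises and were singled out after their values were seen. ASMM10P026138 had levels of 6.09 and 6.06 in knockout cells, -1.0 and -1.65 in Myocd cells, and -1.24 and -1.10 in wild-type cells, while it read -6.53 in aorta and -5.61 in liver. ASMM10P000443 had 5.32 and 5.30 in knockout cells, -1.63 and -1.98 in Myocd cells, and -1.81 and -1.83 in wild-type cells, and it read -6.49 in aorta and -3.61 in liver. Both were bright on the knockout arrays, and the tissues lay below all cultures.

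By class of identifier, 331 of the 332 probes were of the ASMM10P series, which makes up 97.4% of the deposited table. The names of some other classes contain the word lincRNA, for long intergenic non-coding RNA, and the files do not say which ASMM10P probes are mRNAs. The table held 1114 probes of other classes, and 1 of them was chosen. These were 365 ASMM10UP, 424 humanlincRNA, 277 mouselincRNA and 48 MM9LINCRNAEXON probes. The chosen share was 0.79% of ASMM10P probes and 0.0898% of all others. A rise of 2 or more, whatever the Myocd difference, was found for 818 ASMM10P probes, or 1.95%, and for 2 of the others, or 0.180%. The other classes were dimmer, with median wild-type levels from -3.51 for mouselincRNA to -2.87 for ASMM10UP, against -1.43 for ASMM10P, and fewer of their probes entered the table, from 38.4% to 57.8% against 72.0%. Over the whole table, the chosen share was higher in dimmer bands, from 0.349% at a wild-type level of 0 or more to 0.859% at 2.5 to 5 below. Whether brightness bears on the share of a class was not tested.

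The single probe outside the series was mouselincRNA0901-_P1. Its levels were -1.43 and -1.54 in knockout cells, -3.60 and -3.46 in Myocd cells, and -4.49 and -2.94 in wild-type cells. Its knockout arrays lay above the others, and its deposited rise of 2.04 was near the threshold, with wild-type replicates more than 1 log2 unit apart. It stood at -2.84 in aorta and -1.88 in liver.

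Some of the chosen probes had consecutive identifiers. Of the 297 chosen ASMM10P probes with a directly neighbouring number in the table, 22 or 7.41% had a chosen neighbour, forming 11 pairs. The chosen share of all ASMM10P table probes was 0.79%. The share of all table probes with a chosen neighbour was not counted, so no clustering is read from the 22. The files do not say whether neighbouring numbers share a gene or locus. In 8 of the 11 pairs aorta and liver differed in the same direction, against 55.5% of 31271 neighbouring pairs in the table. The gap between the 2 differences had a median of 1.43 in the chosen pairs and 1.61 in all pairs. These differences were taken without the detection limit and include probes not well above background in liver. With 11 pairs, nothing is read from their direction.

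Of the 820 table probes with a rise of 2 or more without Srf, 332 were the ones described here, 245 were 0.5 or more lower with Myocd and 243 were 0.5 or more higher. The median wild-type level was -3.06 in the probes unmoved by Myocd, -1.73 in those lowered and -3.56 in those raised. At least 4-fold higher in aorta than in liver were 28.9% of the unmoved, 36.3% of the lowered and 26.7% of the raised probes, and at least 4-fold higher in liver were 17.2%, 16.7% and 16.5%. All 3 sets thus lay above the table's 12.4% and 10.9%, and no test of the difference between them was made. The aorta level was at least 4-fold above wild-type cells for 65.7% of the unmoved, 45.7% of the lowered and 56.8% of the raised probes, against 8.85% of the table. Lower bounds made up 50 of the 218 unmoved, 8 of the 112 lowered and 42 of the 138 raised probes counted. The choice of all 3 sets used the wild-type arrays, and probes in the table only through tissue detection were not set apart here. These shares are therefore a description, and no order is read from them.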

How the data were processed

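RNA from 6 cultures and 2 tissues was measured on 8 single-colour arrays. Per the file headers, the authors read the arrays with Agilent Feature Extraction 11.0.1.1, which the submitters' processing notes also name, and deposited a processed intensity and detection flags (other values, coded 0 or 1) per spot. A second deposited file holds log2 values; its normalization and any floor are not given. Its columns had medians of 7.16 to 7.27 and correlated across probes with the scanner levels at 0.997 or more, and each had a lowest value shared by 28 to 3307 probes.

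Members were chosen on the deposited log2 values, and the members and the choice of results were made with earlier results of these data known. Levels are log2 processed intensities minus each array's 75th percentile, over 60915 probes, without controls and the 15 probes named as negative. Outlier spots were left out, which left 2 of the 332 members without a value on 1 array each, and repeated spots were averaged. Tested probes were those whose spots passed the detection flag throughout 1 or more of the cultured groups. The fit used limma 3.58.1 under R 4.3.3, through its lmFit and eBayes functions, on the 6 cultured arrays (3 residual degrees of freedom). Tests were two-sided with Benjamini-Hochberg adjustment, after the fit was tested on simulated data. Where 1 side of a difference was not well above background, each of its arrays was set to the higher of the probe's own level and the lowest level well above background, and the fold is a lower bound. Differences with both sides below background were not counted. No spot was saturated, and the number of arrays limits the precision. Figures were drawn with matplotlib 3.10.9.

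The rule for named probes took at most 2 identifiers each for the largest rise, the largest aorta minus liver and the largest liver minus aorta difference among probes well above background in both tissues. The planned marker genes could not be used, since no probe in the deposited table has a gene name. Because the files lack the mean spot signal, normexp was run on the median spot signal. Alternatives were other scalings, filters, thresholds, fit settings and leaving out each cultured array. Replicate numbers were not taken to pair samples.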

Additional observations from a re-analysis of the deposited data

How the results depend on the processing

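Of 80 alternative values over 9 results, 61 stayed within 1.5 times the reported count, or within the spread between replicates for the median difference. That spread was the median standard deviation within cultured groups, 0.18. It does not measure the tissues, which had 1 array each. Counts were compared as they stand, although some alternatives changed the number of probes counted. The rule on scanner levels counted within 498 probes. There the share at least 4-fold above wild-type cells was 55.4% for aorta and 40.0% for liver, against 65.7% and 53.0% of the 332. Only the median difference could change sign, and it did not. The 61 include 15 values for the knockout calls, 6 for the Myocd calls and 9 for the number of chosen probes. The rule used both contrasts and sets that number, so nothing is read from these values. Comparisons with wild-type cells share the wild-type arrays with the rule as well. The number of chosen probes was 556 with the rule on scanner levels of every probe on the array. Of these, 373 were in the deposited table and 307 were shared with the 332. The number was 142 with a rise of 3 or more and 182 with a Myocd difference under 0.25, both subsets. With normexp on every probe of the array it was 266, of which 254 were in the deposited table. Of the 266, 185 were shared, the smallest overlap among the scalings. Leaving out 1 cultured array gave 316 to 359 chosen probes, 301 to 326 knockout calls and 0 to 16 Myocd calls among the 332. The Myocd count of 0 became 10 without wild-type replicate 1, 16 without wild-type replicate 2, 2 with quantile normalization, 3 with normexp, 1 with the deposited log2 values, 2 without Myocd replicate 2, 2 with trend and robust settings and 1 when only probes detected on all 6 cultured arrays were tested. Slide and Myocd cannot be told apart. With the replicate number as a block, 327 probes were called in the knockout contrast and 0 in the Myocd contrast. Differences between replicates correlated at -0.26 between knockout and wild-type arrays, and with the knockout numbers crossed in the replicate block 328 were called. The count higher in liver than in aorta was 89 at 2-fold and 33 among probes well above background on 4 or more cultured arrays, and that higher in liver than in wild-type cells was 111 among those same probes. The median difference of aorta and liver was 0.20 with normexp, 0.24 among probes measured in both tissues, 0.84 among probes well above background on 4 or more cultured arrays and 0.77 with the rule on scanner levels of all probes. The last 2 alternatives and the crossed block were added after the data were seen. With the flag of positive and significant signal, 13 probes were without signal on either wild-type array, in place of 58.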
